A study of Mus musculus with 2 samples.

Results

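Bcl11b and Bcl11a were read probe by probe on the 2 arrays of this series. All gene probes whose name in the scanner files was Bcl11b or Bcl11a were taken, which gave 2 probes for Bcl11b and 3 for Bcl11a, 5 of 41174 probes and 2 of 28090 gene names on the array. Bcl11b was lower in both Bcl11b-deficient pools, by 5.50-fold with Cd4Cre and 3.52-fold with Foxp3Cre at its brighter probe. Its other probe showed 2.28-fold and 1.24-fold lower signals. Bcl11a was 3.33-fold to 3.67-fold higher in the Cd4Cre deficient pool at all 3 probes, while with Foxp3Cre its probes ran from 1.78-fold lower to 1.40-fold higher.

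Bcl11b and Bcl11a are paralogous transcription factors with several C2H2 zinc fingers, protein loops in which cysteines and histidines hold a zinc ion and contact DNA. Both recruit the NuRD corepressor, a chromatin remodelling and histone deacetylase complex. Bcl11b is switched on at T lineage commitment, stays on in T cells, and holds natural killer and progenitor genes down. Bcl11a is the family member of B cells, plasmacytoid dendritic cells and blood progenitors, and represses embryonic and fetal globin genes in red cell precursors.

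The cells were sorted Tregs, the regulatory T lymphocytes defined by the transcription factor Foxp3, from mice on the C57BL/6 background. On the Cd4Cre array, Bcl11b F/F, Cd4Cre, Foxp3-GFP+ mice gave the deficient cells, sorted like the wild-type ones for the Foxp3-GFP reporter. Cd4Cre deletes in the thymus, ahead of Foxp3. On the Foxp3Cre array, the deficient cells came from Bcl11b F/F, Foxp3Cre mice, in which deletion follows Foxp3 expression, and the labels name no reporter for the sort. The labels tie no file to a Cre by name: the Foxp3-GFP cells are named only with Cd4Cre in the design text, and the arrays are called by that match. Each wild-type pool came from 3 mice. The number of mice behind the deficient pools, the age of the mice, whether wild-type mice carried a Cre and which part of Bcl11b was floxed are not given in the sources used here. Wild-type RNA was labelled with Cy3 and deficient RNA with Cy5 on both arrays, with no dye swap, so a dye effect and a genotype effect cannot be told apart.

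The Bcl11b probes lie on the minus strand of chromosome 12 in mm9, probe 1 (A_51_P171772) at chr12:109153847-109153906 and probe 2 (A_52_P925277) at chr12:109148932-109148991, 4855 bases further in the direction of transcription. The Bcl11a probes lie on the plus strand of chromosome 11, probe 1 (A_52_P82704) at chr11:23989728-23989787, probe 2 (A_51_P263004) at chr11:24072868-24072927 and probe 3 (A_51_P262998) at chr11:24073137-24073194. Bcl11a probes 1 and 2 are 83.1 kb apart and probes 2 and 3 are 209 bases apart. Probe 1 was designed on the cDNA AK122557 and the other two on NM_016707, so the Bcl11a probes do not all follow the same deposited transcript. Bcl11b probe 1 was designed on NM_021399 and probe 2 on NM_001079883. The files give no exon or UTR for the probes. The sequences below are those of the scanner files, 5′ to 3′. Bcl11b probe 1 is shown whole because it spells part of a zinc finger, and 30 bases identify each other probe.

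Bcl11b probe 1: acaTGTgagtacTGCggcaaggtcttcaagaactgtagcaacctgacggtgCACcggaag
Bcl11b probe 2: tttattaccttttctattacgtatcgtatg
Bcl11a probe 1: ctacaatcgttggcattgttagaggacttt
Bcl11a probe 2: ttgtgatgttttctgacagtagcctccaag
Bcl11a probe 3: cattgacatAATAAAtgttggagctttaaa

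In Bcl11b probe 1 the capitals mark cysteine codons 2 and 5 and histidine codon 18 of reading frame 1, the spacing of a C2H2 finger. Its cysteine codons are 2 codons apart, and 12 codons separate the later one from the histidine codon. Among all 41174 probes, read on the probe strand in any frame, 43 (0.104%) held this spacing, and Bcl11b probe 1 was the only member among them. In Bcl11a probe 3 the capitals mark AATAAA, the letters of the polyadenylation signal, which 4.78% of all probes hold on the probe strand. This probe has 60 bases for a genomic span of 58 bases. The longest run of letters that a Bcl11b probe shares with a Bcl11a probe, on either strand, is 7 bases, and no member shares more than 14 bases with a probe of another gene. Probe sequences were compared only with each other, so transcripts elsewhere were not searched.

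Bcl11b probe 1, the probe in the finger, was bright in all 4 pools. Its log2 signal was 15.55 in the Cd4Cre wild-type pool and 13.09 in the Cd4Cre deficient pool. It was 14.95 in the Foxp3Cre wild-type pool and 13.14 in the Foxp3Cre deficient pool. Both wild-type pools were thus above both deficient pools. The ratio of deficient over wild type was -2.46 in log2 on the Cd4Cre array, with an error of 0.30 that the scanner software estimates for 1 array. On the Foxp3Cre array it was -1.82 with an error of 0.26. The signal left in the deficient pool was 18.2% of wild type with Cd4Cre and 28.4% with Foxp3Cre. It was far from the detection limit: the scanned intensity of the deficient spots was 216 times and 236 times the local background. In bulk RNA, fewer cells with Bcl11b and less Bcl11b RNA per cell cannot be told apart. On the Cd4Cre array 0.313% of 23645 detected probes had a lower ratio, and on the Foxp3Cre array 0.951% of 22387 did.

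Bcl11b probe 2 read the same gene 4855 bases further on and showed a smaller difference. Its log2 signal was 13.38 in wild type and 12.19 in deficient cells on the Cd4Cre array, a ratio of -1.19 with an error of 0.23. On the Foxp3Cre array it was 11.14 in wild type and 10.82 in deficient cells, a ratio of -0.32 with an error of 0.21. The deficient signal was thus 43.8% and 80.3% of wild type. Unlike probe 1, this probe had its Cd4Cre deficient signal above its Foxp3Cre wild-type signal, so the order of the pools followed the array as much as the genotype. The background-subtracted intensities before normalization gave 0.22 at this probe on the Foxp3Cre array, where the median over detected probes was 0.49, so its sign there rests on the normalization.

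**Figure D1:**
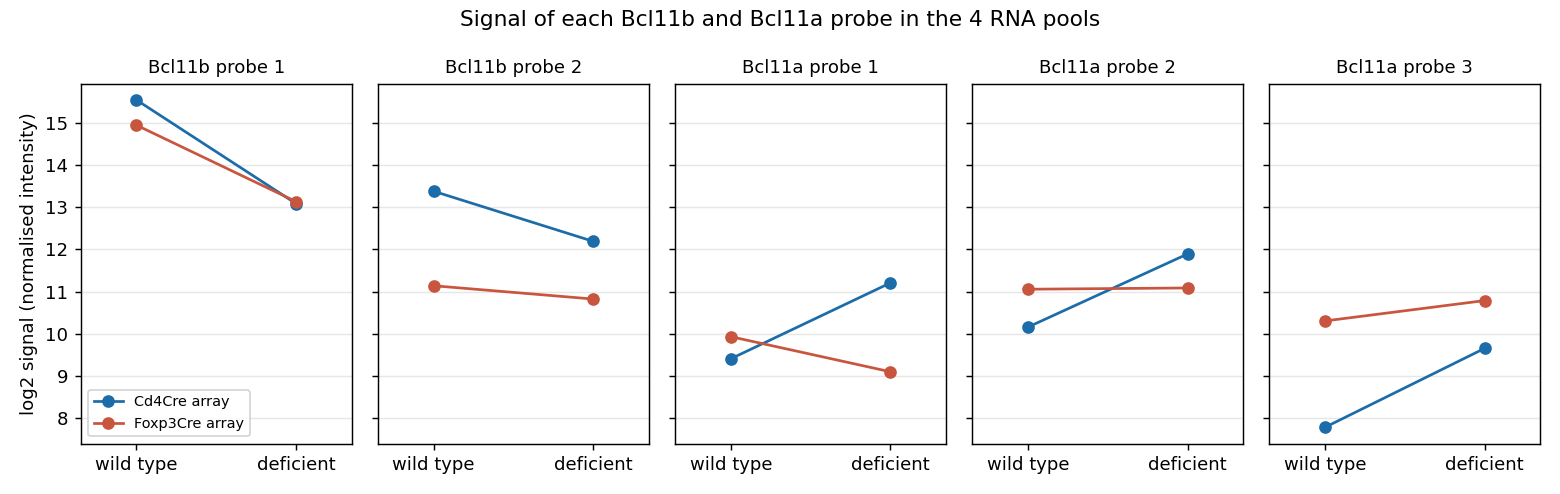
Normalised log2 signal (y axis) of the 2 Bcl11b probes and the 3 Bcl11a probes in the wild-type and deficient pool of each array, 1 point per pool with a line joining the pools of an array. Bcl11b probe 1 is lower in the deficient pools (13.09 and 13.14), while the 3 Bcl11a probes are all higher in the deficient pool with Cd4Cre and differ in direction or size with Foxp3Cre; signals of different probes are not comparable with each other.

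The Bcl11b probes differed by 1.27 with Cd4Cre and by 1.5 with Foxp3Cre, 3.36 and 4.56 times the combined scanner error. Among 4633 genes with at least 2 probes above background in both channels of the Cd4Cre array, 11.8% had a range between probes at least as large, and the median range was 0.47. For Foxp3Cre it was 5.08% of 4312 genes, with a median range of 0.35. The distance between the Bcl11b probes was thus larger than in most genes on both arrays, and in the same direction.

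The 2 Bcl11b probes were both at least 2-fold lower on the Cd4Cre array, where 9.40% of all detected probes were. With Foxp3Cre 1 of 2 was, against 10.5% of all. Each of these ratios comes from 1 array and has no replicate check. An intercept-only limma fit (n = 2 arrays, 21259 probes) averages the ratios and counts the difference between the Cre systems as spread. Bcl11b probe 1 averaged -2.14 (standard error 0.35), lower on 2 of 2 arrays, and was called (limma, Benjamini-Hochberg adjusted p = 0.0323). It ranked at 41 by p. Probe 2 averaged -0.75 (standard error 0.36) and was not called (limma adjusted p = 0.236). Of the 5 member probes 1 was called, against 1.48% of all probes tested (1.15% lower, 0.329% higher). The call of probe 1 was lost under 6 of 10 other settings, with limma adjusted p-values from 0.00289 to 0.215 over the alternatives. Its mean stayed between -2.15 and -1.45. The 6 include both the scanner software's ratio and the deposited value table, which hold the same ratio.

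Bcl11a was higher in the Cd4Cre deficient pool at each of its probes. Probe 1 went from a log2 signal of 9.40 in wild type to 11.21 in deficient cells, a ratio of 1.80 with an error of 0.28. Probe 2 went from 10.16 to 11.89, a ratio of 1.74 with an error of 0.27. Probe 3 went from 7.78 to 9.65, a ratio of 1.87 with an error of 0.38. The 3 ratios lay within 0.14 of each other, although the probes span 83 kb, and each difference was under 1 combined scanner error. All 3 probes were at least 2-fold higher, against 10% of all detected probes on this array. Between 2.31% and 2.91% of detected probes had a higher ratio than the respective Bcl11a probe. The wild-type spot of probe 3 was the dimmest among the members, at 8.42 times its local background. By the scanner software's ratio this probe read 3.11, against 2.01 at probe 1 and 1.84 at probe 2. The closeness of the 3 ratios thus depended on the processing.

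On the Foxp3Cre array the Bcl11a probes did not move together. Probe 1 had a log2 signal of 9.93 in wild type and 9.10 in deficient cells, a ratio of -0.83 with an error of 0.24. Probe 2 had 11.06 and 11.09, a ratio of 0.03 with an error of 0.21. Probe 3 had 10.30 and 10.79, a ratio of 0.48 with an error of 0.22. Probe 1, the one from the other cDNA, was therefore lower in the deficient pool, probe 2 was even and probe 3 was higher, with none past 2-fold (background 2.97% of detected probes higher and 10.5% lower). Probes 1 and 3 differed by 1.32, or 4.13 combined scanner errors, a range that 7.24% of genes with at least 2 probes reached. Probes 2 and 3, which share an accession, differed by 0.45, or 1.52 combined errors. Over both arrays, 0 of 3 Bcl11a probes were called, against 1.48% of all probes tested. Probe 1 had a mean of 0.48 (limma adjusted p = 0.605), probe 2 of 0.88 (limma adjusted p = 0.233) and probe 3 of 1.18 (limma adjusted p = 0.109). Without adjustment, the limma p was 0.367, 0.0593 and 0.0121.

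**Figure D2:**
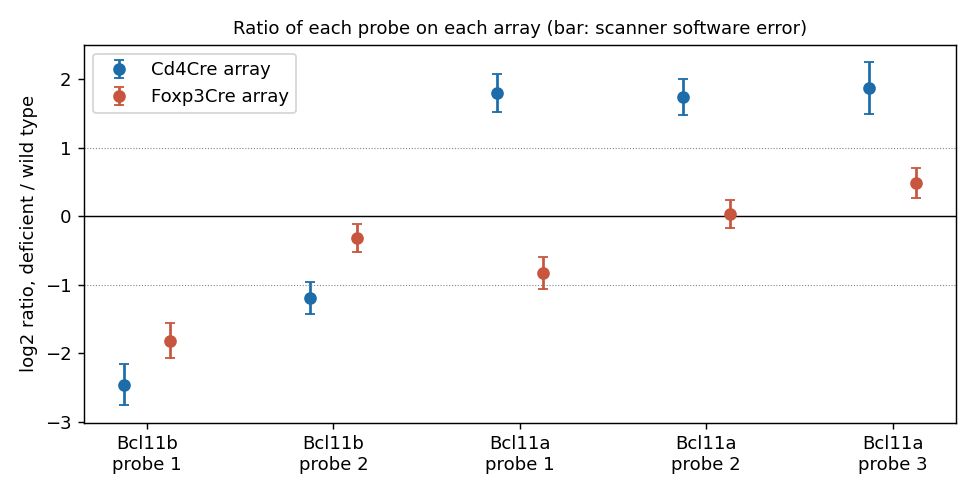
Log2 ratio of deficient over wild type (y axis) of each probe on each array, with bars of 1 scanner software error and dotted lines at 2-fold. The Bcl11a probes sit together near 1.80 on the Cd4Cre array and spread from -0.83 to 0.48 on the Foxp3Cre array.

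The Cre systems differed most at Bcl11a. The Foxp3Cre ratio minus the Cd4Cre ratio was -2.64 at Bcl11a probe 1, -1.71 at probe 2 and -1.39 at probe 3, with combined scanner errors of 0.36, 0.34 and 0.44. Of 17955 probes above background in both channels of both arrays, 1.12%, 4.86% and 8.70% had a difference of at least this size. At Bcl11b the same difference was 0.65 at probe 1 and 0.87 at probe 2, sizes that 37.5% and 24.2% of probes reached. With 1 array per Cre system, no test of these differences was possible, and the scanner software version differed along with the Cre.

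**Figure D3:**
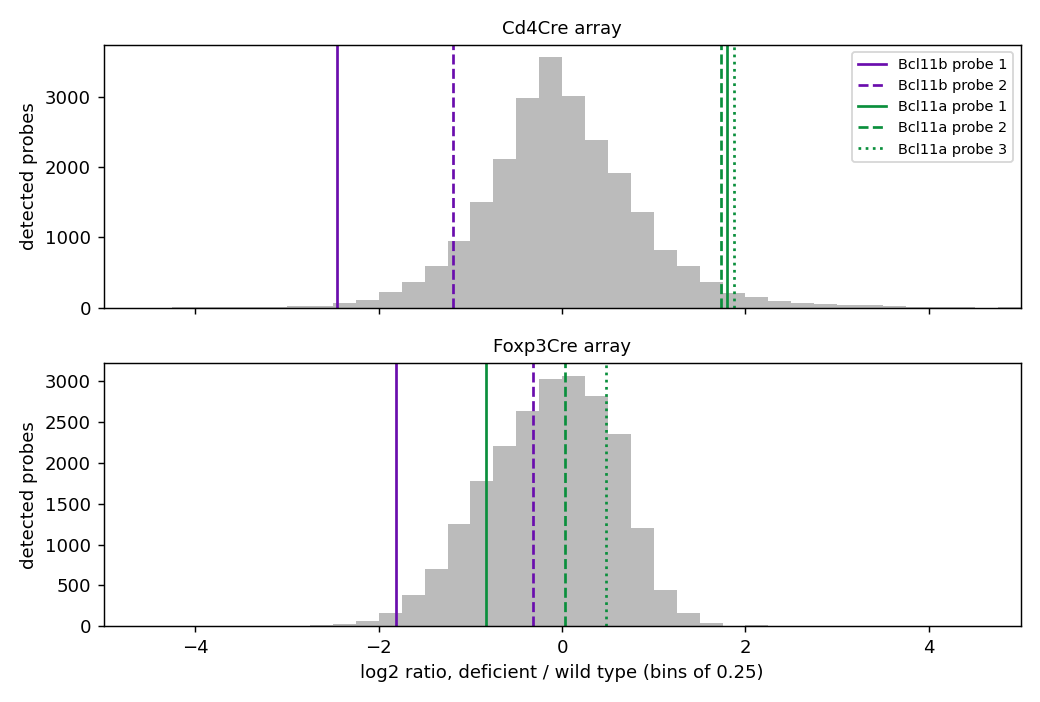
Number of detected probes (y axis) by log2 ratio of deficient over wild type (x axis, bins of 0.25, shown from -5 to 5) on each array, with lines at the member probes. Bcl11b probe 1 lies in the lower tail of both arrays at -2.46 and -1.82, and the Bcl11a probes lie in the upper tail of the Cd4Cre array only.

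The neighbouring probes at both genes were chosen after the values of the members were seen. Within 100 kb of a member probe the array held 3 probes under other names. At Bcl11a, 4930538E20Rik, a long non-coding RNA in RefSeq, is read on the minus strand at chr11:24066878-24066937, opposite to Bcl11a and between its probes 1 and 2. In the Cd4Cre wild-type pool it was not well above background, and in the deficient pool it was at least 2.39-fold higher. In the Foxp3Cre pools it had log2 signals of 8.59 and 8.77, a ratio of 0.19. On the Cd4Cre array it thus lay on the same side of 0 as the 3 Bcl11a probes. On the Foxp3Cre array those probes read -0.83, 0.03 and 0.48, so they gave no single direction to set it against. The other Bcl11a neighbour (ENSMUST00000068360) and A130014H13Rik, near Bcl11b at chr12:109208809-109208868, were not well above background in any of the 4 pools.

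The probes with the most similar pattern were found by the distance between log2 signals over the 4 pools, each probe centred on its own mean, among 21259 probes. Nearest to Bcl11b probe 1 were the kinase gene Ikbke (distance 0.19, ratios -2.24 and -1.86), the T cell surface receptor gene Cd6 (0.23, -2.44 and -1.79), the glycosyltransferase gene Galnt6 (0.27, -2.42 and -1.78), Ncoa5 (0.34, -2.03 and -1.61) and the interleukin 4 receptor gene Il4ra (0.34, -2.39 and -2.04). Nearest to Bcl11a probe 2 were Acoxl (0.024, 1.72 and 0.014), the histone gene H4c14 (0.035, 1.77 and 0.023), the endonuclease gene Eme1 (0.081, 1.78 and 0.059), Dctpp1 (0.096, 1.80 and 0.15) and the spindle gene Spag5 (0.10, 1.67 and 0.13). The first value in each pair is the Cd4Cre ratio.

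Genes that act around Bcl11b were read from the brightest probe of each gene. Of 13 genes of the NuRD corepressor, all measured, 1 was past 2-fold downward with Cd4Cre and none upward, against 10.1% lower and 11.0% higher of all detected genes. With Foxp3Cre 3 were lower and 1 higher, against 10.4% and 2.88%. Their median was -0.64 and -0.76, while the median of all detected genes was -0.05 and -0.08. With median centring the NuRD medians were -0.10 and -0.38, and with the mean over a gene's probes the Cd4Cre one was -0.29. The helicase gene Chd3 read -2.28 and -0.96, the methyl-CpG-binding gene Mbd3 -0.79 and -1.69, the helicase gene Chd4 -0.74 and -1.05, and the deacetylase gene Hdac2 0.27 and 1.46. None of the 13 was called in the limma fit, where 1.53% of genes were (1.11% lower, 0.417% higher; lowest adjusted p of the 4 named 0.0534).

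Of 15 transcription factors of early T lineage commitment, all detected with Cd4Cre and 14 with Foxp3Cre, 3 passed 2-fold downward on each array and none upward, against 10.1% and 10.4% of all detected genes downward. Their medians were -0.27 and -0.64. Median centring in place of loess turned these medians to 0.13 and 0.047. Ikzf1, the Ikaros gene, read -1.89 and -2.95. It was the 1 of 14 called over both arrays (limma adjusted p = 0.0303), against 1.53% of all genes. Under 6 of 10 other settings, 1 probe per gene among them, the fit called no probe at all. Notch1, the receptor that starts T lineage commitment, read -0.79 and -1.22. Tcf7, a factor that acts with Notch signals, read -0.77 and -1.17, and its Cd4Cre sign turned under another normalization (highest value 0.21). Ets1 read -1.15 and -0.94, and its Foxp3Cre sign turned likewise (highest value 0.18).

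Of 16 natural killer and progenitor genes that Bcl11b is known to hold down in T lineage cells, 15 had a probe. With Cd4Cre, 11 passed 2-fold upward and 1 downward (median 2.31), against 11.0% and 10.1% of all genes. With Foxp3Cre, 3 did upward and none downward (median 0.53), against 2.88% and 10.4%. The NK receptor gene Klrk1 read 4.43 and 0.57, the granule gene Nkg7 3.94 and 0.53, the NK receptor gene Klrd1 3.78 and 0.15, and Cd244a 3.40 and 1.04. Cd244a was the 1 of 15 called over both arrays (limma adjusted p = 0.0496), against 1.53% of all genes. This call too was lost under 6 of 10 other settings. The list was chosen with these data known, so its direction is not independent evidence. Some of its genes, Nkg7 and Klrd1 among them, are also NK cell markers below, and Kit is also a progenitor marker. The lists are therefore not separate observations.

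For Bcl11a, 14 factors and genes of its B cell and dendritic cell programme were listed, of which 11 were detected. With Cd4Cre 3 passed 2-fold upward and 1 downward, and with Foxp3Cre none upward and 1 downward. The shares over all genes were 11.0% upward and 10.1% downward with Cd4Cre and 2.88% and 10.4% with Foxp3Cre, so the downward counts were near the background. Ly6d, a surface protein of early B cells, read 2.41 and 0.19, and Runx2, a factor of plasmacytoid dendritic cells, 2.23 and 0.38. Tcf4, the E protein that specifies plasmacytoid dendritic cells, read 1.47 and -0.67. Mtss1 went the other way, with -1.40 and -0.81. None of the 11 was called over both arrays, against 1.53% of all genes. Ly6d, Tcf4 and Spib also stand among the plasmacytoid dendritic cell markers below.

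Beside Treg markers, each of the 4 sorted pools had markers of other cell types above background. All 10 Treg markers were above background in the 4 pools. Foxp3 itself had log2 signals of 12.50 and 8.93 in the Cd4Cre wild-type and deficient pools and of 10.02 and 9.82 in the Foxp3Cre pools. Of these 10 markers, 7 were at least 2-fold lower in the Cd4Cre deficient pool and none in the Foxp3Cre one. The shares of all detected genes were 10.1% and 10.4%. The summed signal of the Treg markers was 0.433 times that of wild type with Cd4Cre and 1.1 times with Foxp3Cre. Such a sum weighs the brightest genes most, here Cd3g and Tnfrsf18 with Foxp3Cre. On that array 6 of the 10 had a negative ratio and 4 a positive one. The median was -0.13, which median centring turned to 0.10. Ctla4, at 1.22, passed 2-fold upward there, against 2.88% of all detected genes. Markers of other cell types stood beside those of Tregs, and Bcl11b and Bcl11a are each expressed in some of these types. Whether they contributed to the Bcl11b and Bcl11a ratios was not tested.

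Of 10 markers of B cells, a lineage that expresses Bcl11a, 9 were detected on each array, and Pax5 was not well above background in any pool. With Cd4Cre each of the 9 had a positive ratio, 5 of them past 2-fold (median 1.23), against 11.0% of all detected genes. Fcrla read 2.22, Ms4a1, the CD20 gene, 2.03, the coactivator gene Pou2af1 1.87 and the adaptor gene Blnk 1.59. With Foxp3Cre 3 of the 9 had a positive ratio and 1 passed 2-fold downward, near the share of all detected genes (10.4%). The median was -0.32, which median centring turned to 0.31. The summed B cell marker signal was 47519 and 147427 in the Cd4Cre wild-type and deficient pools and 128956 and 118320 in the Foxp3Cre ones. The Cd4Cre deficient pool was thus the highest and the Cd4Cre wild-type pool the lowest. Each sum takes in every listed gene with a probe, also those not well above background. Of the progenitor markers, 3 of 8 were detected on each array. The sums of the plasmacytoid dendritic cell, progenitor, NK cell, CD8 and thymocyte, and myeloid markers had the same highest and lowest pools. This order was thus not particular to B cells. The same pools were also highest and lowest at Bcl11a probe 2. At probe 1 the Foxp3Cre deficient pool was lowest, and at probe 3 it was highest, so the probes of Bcl11a did not share 1 order.

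Other marker lists differed between the pools too. Of all detected genes, 11.0% were past 2-fold upward and 10.1% downward with Cd4Cre, and 2.88% and 10.4% with Foxp3Cre. Of 9 plasmacytoid dendritic cell markers, 5 passed 2-fold upward and 1 downward with Cd4Cre, and 1 upward and 2 downward with Foxp3Cre, with summed signals 2.04 times and 0.936 times wild type. Pacsin1 went against most of the list, with -2.04 and -1.15, and the factor gene Spib read 0.89 and -1.04. Siglech, a defining receptor of these cells, had log2 signals of 8.96 and 10.34 in the Cd4Cre pools and of 10.88 and 11.44 in the Foxp3Cre pools. Of the progenitor markers, Kit, Cd34 and Flt3 were detected on each array, and Meis1, Gata2, Hoxa9 and Mecom were not well above background in any pool. The summed signal of 8 NK cell markers was 9.68 times wild type with Cd4Cre and 1.36 times with Foxp3Cre. Their median ratio was 2.39 and 0.63, with 7 and 1 past 2-fold upward and none downward. The summed signal of 10 myeloid markers was 7.38 times and 1.74 times wild type, with median ratios of 2.38 and 0.68. Of these, 6 passed 2-fold upward and 2 downward with Cd4Cre, and 4 upward and 1 downward with Foxp3Cre. The brightest genes weigh most in these sums. In the Cd4Cre deficient pool they were Nkg7 (log2 signal 17.17) and Lyz2 (17.85). The macrophage receptor gene Csf1r read -1.50 and -1.20, and Cd14 read -1.05 and 0.52. Over both arrays limma called the plasmacytoid gene Cox6a2 (3.14 and 1.20, adjusted p = 0.0474) and the neutrophil genes S100a8 (6.86 and 2.33, adjusted p = 0.0323), S100a9, Ngp and Mpo (highest limma adjusted p 0.0459). Of all genes tested, 1.53% were called, and none under 6 of 10 other settings. Of the CD8 and thymocyte markers 3 of 6 were detected, and Rag1, Rag2 and Ptcra were not well above background. The sums over all 6 were 2.29 times and 1.11 times wild type.

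**Figure D4:**
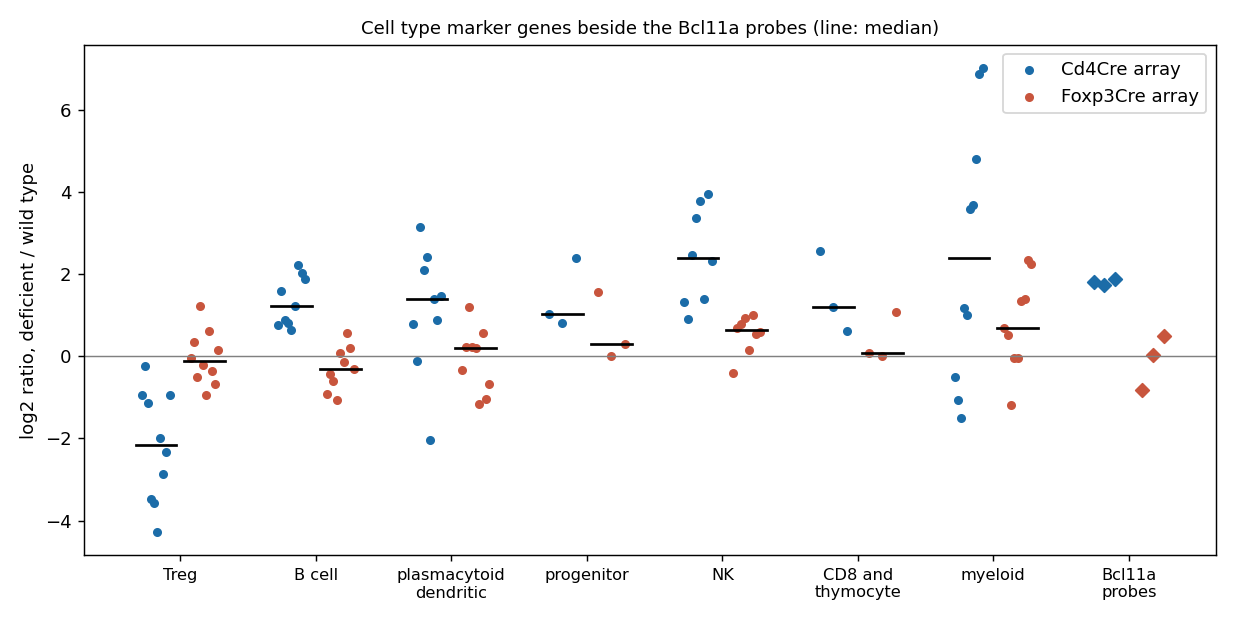
Log2 ratio of deficient over wild type (y axis) of each detected marker gene by cell type list on both arrays, with lines at the median, beside the 3 Bcl11a probes as diamonds. On the Cd4Cre array the Bcl11a probes and the median of every list but the Treg one lie above 0 (B cell 1.23, NK 2.39, myeloid 2.38). On the Foxp3Cre array the B cell markers and the Bcl11a probes spread around 0.

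The processing moved the size of some member ratios. With each array centred on its median in place of loess, Bcl11b probe 1 read -1.78 with Cd4Cre and -1.12 with Foxp3Cre, and probe 2 read -0.86 and -0.14. The 3 Bcl11a probes read 1.76, 1.78 and 1.73 on the Cd4Cre array under median centring, and -0.81, 0.22 and 0.61 on the Foxp3Cre array. No member changed sign on either array under the 6 alternatives for its ratio. Of these, keeping marked spots left every member ratio unchanged, and the deposited table repeated the scanner software's ratio. Among the probes at least 2-fold changed, 51.5% were higher with Cd4Cre and 22.0% with Foxp3Cre, against 66.3% and 65.0% with median centring and 51.0% and 43.3% with the scanner software's ratio.

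**Figure D5:**
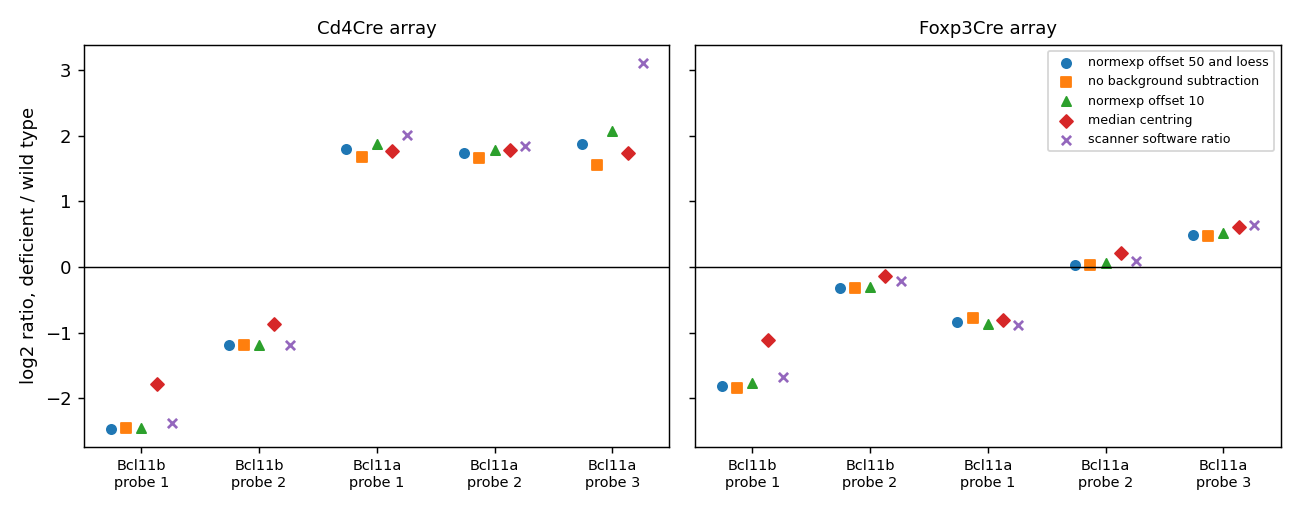
Log2 ratio of deficient over wild type (y axis) of each member probe on each array under 5 ways of processing, 1 symbol each. Median centring brings Bcl11b probe 1 closer to 0 (-1.78 and -1.12), and the scanner software's ratio puts Bcl11a probe 3 at 3.11 on the Cd4Cre array.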

How the data were processed

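Each array held 43379 gene-probe spots, of which 24439 and 23446 (wild type) and 21773 and 20689 (deficient) were well above background on the Cd4Cre and Foxp3Cre array, and each member probe had 1 spot. The authors deposited spot intensity and background intensity per channel, with the scanner software's log10 ratio, its error and its p-value, from Agilent Feature Extraction 10.5.1.1 (Cd4Cre) and 10.7.3.1 (Foxp3Cre) per the file headers; the submitters' processing notes name 10.5.1. The deposited value table equals that log10 ratio. The p-value was not used.

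Intensities were corrected with normexp (offset 50) and normalized by loess within arrays, with control spots at weight 0, then Aquantile between arrays, in limma 3.58.1 (R 4.3.3). Outlier-marked spots (137 and 155) were dropped and repeated spots averaged. A probe was detected if well above background in 1 channel; where the other was not, the ratio is a bound, open to dye bias. Repeated spots had a median SD of 0.056 and 0.071 (log2, 245 probes), spotting error only. The limma fit used probes detected on both arrays, was checked on simulated ratios (false calls exceeded the nominal share, and most changes of the smallest simulated size were missed), and treats arrays of different Cre systems as replicates. The number of arrays limits the precision. List genes were named through a RefSeq table (GRCm38.p6); 24836 of 41174 probes matched by accession, others by symbol or synonym. The text names, by rule, up to 4 detected members of a list with the largest ratios, Foxp3, and the 5 nearest patterns. Siglech, Spib, Csf1r, Cd14 and the markers and globin gene below background were named after their values were seen. The members and lists were chosen with earlier results of these data known. One listed progenitor marker is not reported here.

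Alternatives were no background subtraction, offset 10, median centring, the scanner software's ratio, the deposited table, marked spots kept, other filters on dim probes, an intensity trend, the mean over probes and, added after seeing the data, 1 probe per gene.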

Additional observations from a re-analysis of the deposited data

Results flagged for a closer look

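Bcl11a probe 1 had a ratio of 1.80 with Cd4Cre and of -0.83 with Foxp3Cre, each larger in size than its scanner error. At this probe the same contrast thus ran in opposite directions in the Cre systems. Bcl11a probes 2 and 3 did not reverse, with 1.74 and 1.87 with Cd4Cre and 0.03 and 0.48 with Foxp3Cre. The difference at probe 1 was not tested, since each Cre system has 1 array. With 1 array per group, no array could be set against others of its group.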

How the results depend on the processing

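Of 60 alternative values of the member ratios, 55 moved by less than the scanner error. Keeping marked spots left every member ratio unchanged, and the deposited table repeats the scanner software's ratio. These alternatives are therefore counted but are not separate checks. With median centring, Bcl11b probe 1 read -1.78 and -1.12 and probe 2 read -0.86 on the Cd4Cre array; with the scanner software's ratio and the deposited table, Bcl11a probe 3 read 3.11 there. The limma call of Bcl11b probe 1 was lost with no background subtraction (mean -2.15, limma adjusted p = 0.0576), offset 10 (-2.11, 0.0686), the scanner software's ratio and the deposited table (-2.02, 0.156), no filter on dim probes (-2.14, 0.215) and 1 probe per gene (-2.14, 0.107). Of all probes, limma called 70 higher and 245 lower at an adjusted p under 0.05 (5001 of either direction before adjustment). These calls fell to 0 and 0 under each of the same 6 alternatives. They were 490 and 986 with both channels on both arrays above background, 306 and 741 with an intensity trend, and 1543 and 637 with median centring. Probes at least 2-fold higher numbered 2364 on the Cd4Cre array (3580 with median centring) and 665 with Foxp3Cre (2691 after median centring, 1804 with the scanner software's ratio and the deposited table). Those at least 2-fold lower on the Foxp3Cre array numbered 2359, and 1450 with median centring. The cause was not tested. Of 168 alternative list medians, 143 moved by less than the median scanner error of the list's members, undetected ones included. With Cd4Cre and Foxp3Cre that error was 1.19 and 1.14 for the CD8 and thymocyte markers, and 1.30 and 1.03 for the progenitor markers. The CD8 and thymocyte medians, 1.19 and 0.08, read 2.07 and 1.11 with median centring and still counted among the 143. Here too, keeping marked spots moved none of the medians and the deposited table repeated the scanner software's ratio. No paired analysis was possible because each Cre system has 1 array, and for the same reason no replicate could be left out. The dimmest member spot was the Cd4Cre wild-type spot of Bcl11a probe 3, at 8.42 times background.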

Other observations

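Bcl11a represses embryonic and fetal globin genes in red cell precursors. The globin genes read here, embryonic and adult, were detected in part. Of 5 globin genes with a probe, 4 were detected with Cd4Cre and 3 with Foxp3Cre, and Hba-x, an embryonic gene, was not well above background in any pool. Hbb-bh1, an embryonic beta-like gene, had a ratio of 1.14 on the Cd4Cre array and was not well above background on the Foxp3Cre array. Hbb-y, another embryonic beta-like gene, was not well above background in the Cd4Cre deficient pool, where it was at least 1.01-fold lower than in wild type, and had a ratio of 0.30 with Foxp3Cre. The adult genes Hba-a1 and Hba-a2, near-identical copies whose probes are uncertain, read 0.72 and 0.77 with Cd4Cre and 0.58 and 0.59 with Foxp3Cre. Of the globin genes, 3 were tested over both arrays and none was called, against 1.53% of all genes.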
